A study of Mus musculus with 10 samples.

Results

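The comparison described here is that of liver RNA 72 h after an overdose of acetaminophen with liver RNA of control mice at the same time. It rests on the 2 arrays labelled with that time, out of 10 arrays in the series, which also holds 2 arrays each at 3, 8, 24 and 48 h. Treated mice were female C57BL/6 animals aged 8 weeks that had been fasted for 24 h and then received acetaminophen once at 350 mg/kg by intraperitoneal injection in phosphate-buffered saline. Control mice were of the same strain, sex and age, went through the same fast and received the saline alone, so the fast is common to both groups at every time. At 72 h the labels pair treated mouse 1 with control mouse 2 on the first array, called the mouse 1 array below, and treated mouse 3 with control mouse 3 on the second, called the mouse 3 array. The treated liver carried the red dye (Cy5) and the control liver the green dye (Cy3) on every array. Dye and treatment therefore cannot be told apart in the ratio at any 1 time, while a bias of the dyes shared by all arrays drops out when times are subtracted.

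Acetaminophen is cleared by the liver mainly through glucuronidation and sulfation. In overdose, cytochrome P450 enzymes of hepatocytes around the central veins turn part of it into a reactive quinone imine that uses up glutathione and binds mitochondrial proteins. The centrilobular hepatocytes that die are removed by phagocytes and replaced by division of their neighbours, and the enzymes, transporters and plasma proteins by which differentiated hepatocytes are known return as the tissue is rebuilt.

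Each value is the log2 ratio of treated to control liver on an array, with the mouse 1 array given first, and then the mean over both arrays ± SE of a linear model fitted over all 10 arrays (n = 2 arrays per time). A gene was called when its p-value, adjusted by the Benjamini-Hochberg method over 24007 genes, was under 0.05, and members of a list are counted as having risen or fallen between times where that difference was called. The mouse 1 array was the dimmer of the pair: 19407 spots of its treated channel and 28841 of its control channel were well above background, against 32759 and 34796 on the mouse 3 array. It also carried 25 spots whose local background exceeded the spot by more than 10 intensity units, against 0 such spots on the mouse 3 array. A background model fitted with those spots added a median of 595.9 units to the treated and 1483 units to the control signals of the mouse 1 array, which exceeded its median signals over background of 19.5 and 41.71 units. The model was therefore fitted without them, which changed the added medians to 5.137 and -4.401 units. This choice was made after the data had been seen. With every spot kept, limma called 0 genes at 72 h and 766 had an unadjusted p under 0.05. The 2 arrays were on different slides and were scanned on different days, so mouse, slide and scan day cannot be told apart between them. No spot was saturated on any array. All 7 hepatocyte markers examined were well above background in the 4 livers of 72 h. Of tissues that should be absent, 1 of 4 pancreas markers (Amy2a5) and 0 of 2 skeletal muscle markers were so in all 4. Bulk RNA does not separate fewer cells of a type from less RNA per cell.

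By 72 h the treated livers stood close to the control livers at most genes. The SD of the log2 ratio over 24007 genes was 0.235 at 72 h, against 0.641 at 48 h. Only 10 genes were at least 2-fold above control on both arrays of 72 h, against 910 at 48 h, and 36 were at least 2-fold below on both, against 801. Pearson's r between the paired arrays, taken over genes as a description of the array pair, was 0.239 for 72 h, against 0.859 for 48 h and between 0.676 and 0.828 for the 3 earlier times. At 72 h limma called 2 genes higher in treated livers (0.00833% of those tested) and 2 lower (0.00833%), and 2715 genes had an unadjusted p under 0.05. Ratios were above 0 on both arrays for 6210 genes (25.9%) and below 0 on both for 6613 (27.5%). A missing call does not show that a gene had returned to its control level. The scatter of the 72 h arrays against each other and that of the 48 h arrays show the contrast.

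**Figure D1:**
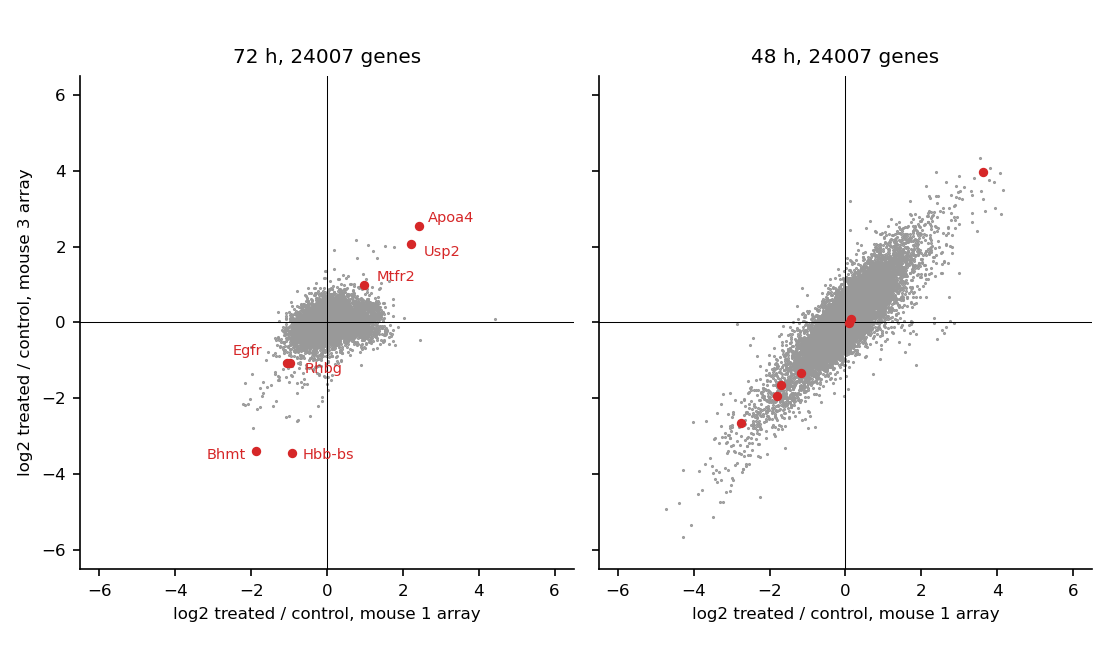
Log2 ratio of treated over control liver on the mouse 3 array (vertical axis) against the mouse 1 array (horizontal axis) at 72 h (left) and 48 h (right), 1 grey point per gene. The 7 red genes are named at 72 h and marked without names at 48 h. At 72 h the points form a compact cloud with a correlation of 0.239, at 48 h a long diagonal with a correlation of 0.859. Apoa4 and Usp2 lie high on both arrays of 72 h, and Bhmt and Hbb-bs lie below the cloud.

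Of the 4 genes called at 72 h, Apoa4 and Mtfr2 were higher and Egfr and Rhbg lower in treated livers. Apoa4, which encodes an apolipoprotein of triglyceride-rich particles and is known to be induced in fasted and fatty liver (probe at chromosome 9, 46049661 to 46050404, mm9), had log2 intensities of 9.86 and 10.01 in the treated livers, against 7.43 and 7.48 in the control livers. The ratio was 2.43 and 2.53 on the 2 arrays, a mean of 2.48 ± 0.20 (limma, adjusted p = 0.0209). Its mean ratios at 3, 8, 24, 48 and 72 h were -0.29, 2.85, 0.29, 3.79 and 2.48, so Apoa4 remained above control at 72 h but lower than at 48 h, by -1.30 ± 0.28 (adjusted p = 0.0123). The treated livers did not overlap the control livers. The call was made in 16 of 26 alternative settings and was lost with slide as a term (adjusted p = 0.32) and with the mouse number as a block (adjusted p = 0.0953). With every spot kept in the background model the mean was 1.38 (adjusted p = 0.9999).

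Egfr encodes the epidermal growth factor receptor, through which hepatocytes receive growth signals (chromosome 11, 16813815 to 16813874). Its log2 intensities were 10.12 and 9.78 in treated livers, against 11.18 and 10.84 in control livers, giving ratios of -1.05 and -1.06 and a mean of -1.06 ± 0.09 (adjusted p = 0.0209). The 2 other Egfr probes gave -0.82 and -1.04, and -1.38 and -0.79. Egfr was below control at every time, with means of -0.53, -0.88, -1.68, -1.25 and -1.06 at 3, 8, 24, 48 and 72 h. Its 72 h ratio exceeded that of 24 h by 0.62 ± 0.12 (adjusted p = 0.0174), and the difference of 0.20 ± 0.12 from 48 h was not called (adjusted p = 0.313). Egfr was called in 10 of 26 alternative settings. The adjusted p was 0.32 with slide as a term, 0.105 with the mouse number as a block and 0.0771 with the mean of all kept probes of a gene. With every spot kept in the background model the mean was -0.69 (adjusted p = 0.608).

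Rhbg encodes an ammonium transporter of pericentral hepatocytes (chromosome 3, 88047265 to 88047324). Its log2 intensities of 8.12 and 7.54 in treated livers lay below those of 9.10 and 8.60 in control livers. The ratios of -0.97 and -1.06 averaged -1.02 ± 0.10 (adjusted p = 0.0396). The mean was -1.86 at 48 h, and the difference of 0.85 ± 0.14 between 72 h and 48 h was called (adjusted p = 0.00474). Rhbg was called in 10 of 26 alternative settings. The adjusted p was 0.32 with slide as a term, 0.0668 with the mouse number as a block and 0.0525 without the probes with a run of alternating G and T described next. With every spot kept in the background model the mean was -0.56 (adjusted p = 0.9999).

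Mtfr2, named for a regulator of mitochondrial fission, had log2 intensities of 12.74 and 12.46 in treated livers, against 11.77 and 11.47 in control livers, with ratios of 0.98 and 0.99 and a mean of 0.98 ± 0.09 (adjusted p = 0.0353). Its sole kept probe (chromosome 10, 20080996 to 20081055) ends in a long run of alternating G and T. The probe sequence led to a search, made after this value was seen, for every kept probe with an unbroken run of at least 16 alternating G and T. The last 30 bases of 4 such probes are shown as the array files give them, 5′ to 3′, with the run in capitals, because unrelated genes share the same letters.
Mtfr2: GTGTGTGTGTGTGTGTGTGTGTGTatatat
Eya1: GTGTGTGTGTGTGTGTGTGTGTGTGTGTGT
Srek1: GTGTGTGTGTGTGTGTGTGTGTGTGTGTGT
Wdr89: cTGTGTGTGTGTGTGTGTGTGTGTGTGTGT
The runs in the full 60-base probes were 27, 34, 30 and 29 bases long in that order.

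Of 29623 kept probes, 73 carried such a run. Of these, 71 (97.3%) were above 0 on both arrays of 72 h, against 25% of all kept probes, and 71 of the 73 genes they represent had an unadjusted p under 0.05 at 72 h, among 2715 over all genes. The median log2 ratio of the 73 probes was 1.42 and 1.22 at 3 h, 0.84 and 0.64 at 8 h, 0.05 and 0.08 at 24 h, 0.12 and 0.00 at 48 h, and 1.10 and 0.46 at 72 h, 1 value per array. The probes of Mtfr2, Eya1, Srek1 and Wdr89 share a repeat and not a gene, so the Mtfr2 value cannot be told apart from the signal of the repeat. Without these probes limma called 2 genes at 72 h, Apoa4 and Egfr. Which RNA bound the repeat was not tested.

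**Figure D2:**
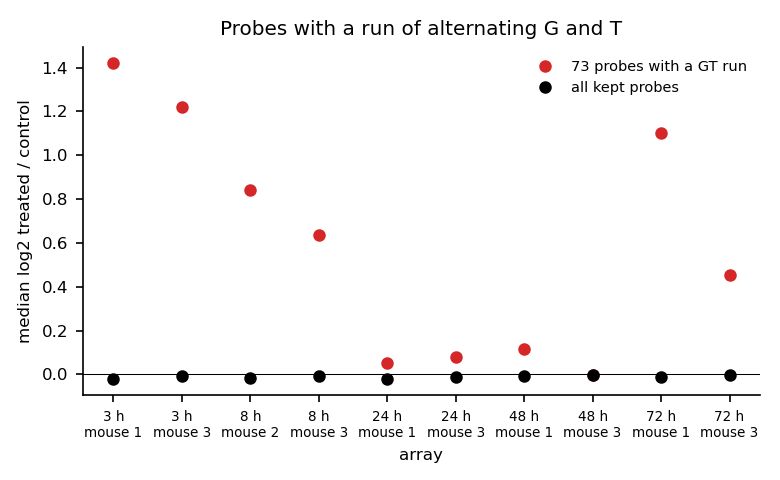
Median log2 ratio of treated over control liver on each of the 10 arrays (horizontal axis, by time and treated mouse) for the 73 probes with a run of at least 16 alternating G and T (red) and for all 29623 kept probes (black). The red points stand above 0 at 3, 8 and 72 h and near 0 at 24 and 48 h, and the black points stay near 0. The red point of the mouse 3 array at 48 h lies under the black point.

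The question of what had recovered was put to the genes that were furthest from control at the earlier times. Of 1038 genes called at least 2-fold lower at 48 h (4.32%), the median ratio was -0.04 at 72 h, against -1.48 at 48 h. For 900 of them limma also called the return towards control, where 9.1% of all genes were called higher than at 48 h. On both arrays of 72 h, 89 (8.58%) were still at -0.5 or less and 19 (1.83%) were at 0.5 or more. Of 1403 genes called at least 2-fold higher at 48 h (5.84%), the median ratio was -0.03 at 72 h, against 1.31 at 48 h. The return was called for 1301 of these, where 13.3% of all genes were called lower than at 48 h. On both arrays, 10 (0.713%) were still at 0.5 or more and 22 (1.57%) were at -0.5 or less. The returns were tested against the same 48 h values by which the genes had been chosen. Such calls were favoured by that choice and give no separate support for recovery. Among all 24007 genes, 308 (1.28%) stood at least 0.5 from 0 with the same sign on both arrays of 72 h. That count takes both sides together: 112 of the 308 were above control and the rest, the larger part, below. Genes that had been low at 48 h thus kept a larger remainder beyond 0.5 than genes that had been high, a difference of counts that was not tested.

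At 24 and 8 h, too, the share still beyond 0.5 was larger for the lower genes. At 3 h it was larger for the higher genes only when the GT-run probes were counted, and without them it was slightly smaller. The 1098 genes called at least 2-fold lower at 24 h (4.57%) had a median of -0.15 at 72 h, and 89 (8.11%) were still at -0.5 or less on both arrays. The 497 genes higher at 24 h (2.07%) had a median of 0.02 at 72 h, with 10 (2.02%) still at 0.5 or more. For the genes of 8 h, 476 higher (1.98%) and 320 lower (1.33%), the medians at 72 h were 0.04 and -0.07, and 13 (2.74%) and 28 (8.75%) were still beyond 0.5 on their side. The 248 genes higher at 3 h (1.03%) had a median of 0.41 at 72 h, and 27 (11%) were still at 0.5 or more. Of these, 68 were measured by the GT-run probes, and without them the median of the other 180 was 0.19, with 14 still at 0.5 or more. The 140 genes lower at 3 h (0.583%) had a median of -0.15, and 12 (8.57%) were still at -0.5 or less. Beyond 0.5 on the opposite side of 0 were 13 of the genes higher and 15 of those lower at 24 h. The same counts were 7 and 10 for 8 h, and 9 and 3 for 3 h. In the differences between times, limma called 2184 genes higher (9.1%) and 3182 lower (13.3%) at 72 h than at 48 h. It called 1484 higher (6.18%) and 860 lower (3.58%) than at 24 h, 566 higher (2.36%) and 692 lower (2.88%) than at 8 h, and 98 higher (0.408%) and 108 lower (0.45%) than at 3 h. The arrays of 48 and 72 h shared slides in pairs, and 5355 of the 5366 genes called between these times differed in the same direction on both slides. A 72 h array shared 1 slide with a 24 h array, on which all 2344 called genes kept their direction, 1 with an 8 h array, where 1257 of 1258 did, and none with a 3 h array. These directions were read from arrays that had also made the calls. Such agreement was favoured in advance and gives no separate support. With slide as a term of the fit, the calls numbered 4870, 683, 54 and 0 against 48, 24, 8 and 3 h, and 0 at 72 h itself.

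The largest returns from 48 h were those of hepatocyte enzymes and transporters. Rgn, which encodes regucalcin, a calcium-binding protein and gluconolactonase abundant in hepatocytes, had log2 intensities of 14.92 and 14.29 in treated livers at 72 h, against 14.40 and 14.48 in control livers. Its ratio was 0.52 and -0.19 at 72 h, against -4.29 and -5.66 at 48 h, a difference of 5.14 ± 0.42 (adjusted p = 0.000402). The treated and control livers of 72 h overlapped. Cyp2c54, a cytochrome P450, was at 0.09 and -0.17 at 72 h, against -4.38 and -4.76 at 48 h, with a difference of 4.53 ± 0.21 (adjusted p = 0.00012). Cyp3a11, the main drug-metabolising P450 of the mouse Cyp3a group, was at -0.08 and 0.61, against -3.88 and -4.53, a difference of 4.47 ± 0.30 (adjusted p = 0.000313). Otc, the urea cycle enzyme ornithine transcarbamylase, was at 0.09 and 0.00 at 72 h, against -3.77 and -4.42 at 48 h, and differed by 4.13 ± 0.21 (adjusted p = 0.000186). Its 72 h mean of 0.04 ± 0.15 had an adjusted p of 0.963. The rise was also at least 4.08 for Upp2 (uridine phosphorylase), Inmt (an indole and thioether methyltransferase), Slco1b2 (an organic anion transporter of the sinusoidal membrane) and Sult2a8 (a sulfotransferase). Among these, Sult2a8 stood at -0.06 and -1.43 on the 2 arrays of 72 h, and Upp2 at 1.13 and 0.13.

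The drug metabolism list, which holds cytochrome P450 genes and those of other enzymes that oxidise or conjugate drugs, showed this over its members. Of 35 genes tested, 27 rose and 0 fell between 48 and 72 h, where 9.1% of all genes rose and 13.3% fell. The list's median was 0.02 at 72 h, against -2.08 at 48 h and 0.00 for all genes. On both arrays of 72 h, 11 were above and 9 below control, where 25.9% of all genes were above and 27.5% below. Cyp2e1, the P450 chiefly known for activating acetaminophen, was at 0.43 and -0.13, and Cyp1a2, which also does so, at -0.08 and -0.02. Por, the reductase that passes electrons to all microsomal P450 enzymes, was at 0.41 and 0.74 and was not called. Ugt2b1, a glucuronosyltransferase, was at -0.65 and -0.24.

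These hepatocyte lists depended on the normalization within arrays. With each array only centred on its median, in place of loess, the 72 h median of the drug metabolism list lay at -0.48 relative to all genes and that of the secreted plasma protein list at -0.54, and 284 genes were called between 48 and 72 h, 4.23% of them higher at 72 h, against 40.7% of the 5366 calls with loess. Relative to all genes under median centring, the pericentral and the bile acid lists described next lay at -0.37 and -0.32. Of the lists described further on, cholesterol synthesis lay at -1.02 in that setting, oxidative phosphorylation at -0.75, amino acid catabolism at -0.73 and the circadian clock at 0.15. Among the drug metabolism, secreted plasma protein, pericentral and bile acid genes, 0 were called higher at 72 h than at 48 h under median centring.

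Other lists of the differentiated hepatocyte had a median near 0 as well. Among 44 secreted plasma protein genes, 30 rose and 2 fell from 48 h, where 9.1% of all genes rose and 13.3% fell. The median was -0.04 at 72 h, against -1.42 at 48 h. The order of their 72 h values was led by Apoa4, and next to it stood Serpina7, the thyroxine-binding globulin, at 0.19 and 1.41. F11, coagulation factor XI, was at -0.55 and -1.20, and Apoa1, the main apolipoprotein of high-density lipoprotein, at -0.07 and -1.40. Alb, the albumin gene, was at 0.15 and 0.08. Among 25 bile acid and transport genes, 15 rose and 0 fell from 48 h, and the median was 0.05. Cyp7a1, whose product catalyses the first and limiting step from cholesterol to bile acids, was at -0.81 and -0.76 at 72 h, against -3.46 and -3.85 at 3 h, a difference of 2.87 ± 0.22 (adjusted p = 0.00223). The sterol hydroxylase Cyp8b1 was at -0.80 and -0.95. The sodium-dependent bile acid importer Slc10a1 was at 0.83 and 0.50, the export pump Abcb11 at 0.52 and 0.46, and the organic anion transporter Slco1a4 at 1.10 and 0.74. No gene of the bile acid list was called at 72 h.

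The 25 pericentral hepatocyte genes are those expressed around the central vein, where acetaminophen injures. Of them, 15 rose and 0 fell from 48 h, where 9.1% of all genes rose and 13.3% fell. Their median was -0.01 at 72 h, against -1.39 at 48 h. On both arrays, 10 were below control and 5 above, where 27.5% of all genes were below and 25.9% above. Rhbg was the sole member called. Oat, ornithine aminotransferase, was at -1.01 and -1.09 at 72 h, against a mean of -3.34 at 48 h, and rose by 2.29 ± 0.32 (adjusted p = 0.00237) without a call at 72 h (adjusted p = 0.152). Aldh1a1, a retinal dehydrogenase, stood at -0.82 and -0.71. Glul, the glutamine synthetase of the innermost pericentral layer, was at -0.07 and -0.57, and Lgr5, a receptor that enhances Wnt signalling there, at -0.40 and -0.31. Slc1a4, an amino acid transporter, was at 0.92 and 0.61, and Car2, a carbonic anhydrase, at 0.58 and 0.72.

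**Figure D3:**
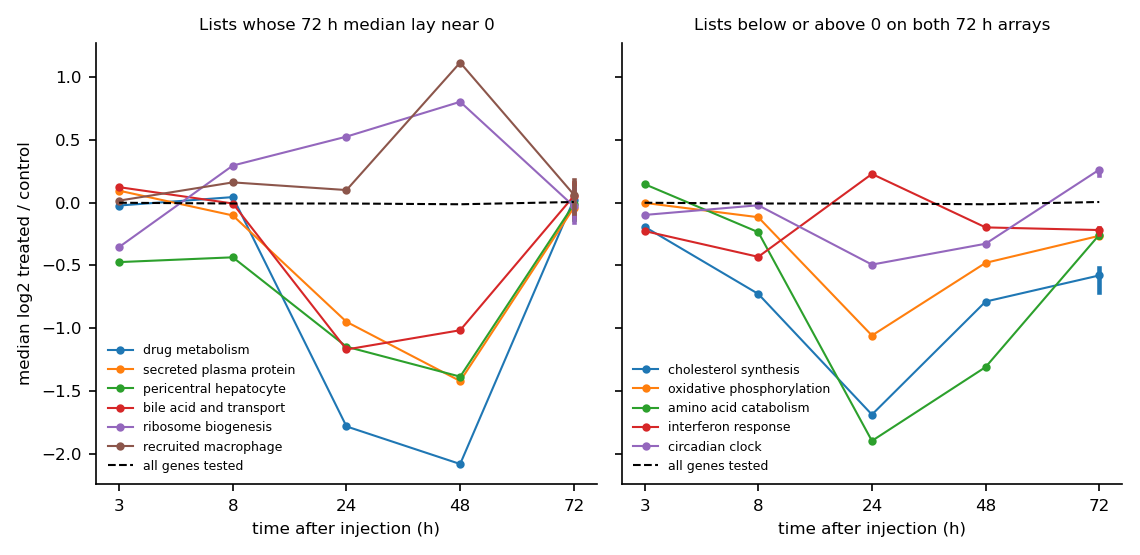
Median log2 ratio of treated over control liver of gene lists (coloured lines) and of all 24007 genes (dashed) at 3, 8, 24, 48 and 72 h (horizontal axis, evenly spaced). Vertical bars beside 72 h join the medians of the 2 arrays. The left panel shows lists whose 72 h median lay near 0, among them drug metabolism at 0.02 after -2.08 at 48 h, and the right panel lists with a median on the same side of 0 on both arrays, cholesterol synthesis at -0.58 and the circadian clock at 0.26.

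The largest falls from 48 h were those of genes that had been above control. Igfbp1, whose secreted product binds insulin-like growth factors and is induced by stress and fasting, had a 72 h ratio below 0 on both arrays. Its log2 intensities at 72 h were 11.51 and 9.57 in treated livers, against 12.28 and 12.14 in control livers. Its mean ratios at 3, 8, 24, 48 and 72 h were 6.15, 5.22, 1.77, 2.54 and -1.67. The ratios of -0.76 and -2.57 at 72 h were not called (mean -1.67 ± 0.47, adjusted p = 0.244), whereas the difference of -7.82 ± 0.67 from 3 h was (adjusted p = 0.00389). Afp, the fetal counterpart of albumin, was at 0.06 and -0.03 at 72 h, against 4.08 and 3.93 at 48 h, a difference of -3.99 ± 0.65 (adjusted p = 0.00418). Uts2, the gene of the vasoactive peptide urotensin 2, fell by 3.89 ± 0.67 and was not well above background in any liver of 72 h. Tubb2a (a beta tubulin), Cidec (a lipid droplet protein), Gsta1 (an alpha glutathione transferase) and Fabp4 (a fatty acid binding protein of adipocytes and macrophages) fell from 48 h too, by differences between -3.73 and -3.46.

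Early stress genes were among the largest differences from 3 and 8 h. Egr1, an immediate early transcription factor, was at -0.18 and -0.03 at 72 h, against 6.34 and 5.81 at 8 h, a difference of -6.18 ± 0.42 (adjusted p = 0.000843). Chac1, a glutathione-degrading enzyme of the integrated stress response, was at -0.24 and -1.14 at 72 h, against 4.71 and 4.49 at 8 h, a difference of -5.29 ± 0.35 (adjusted p = 0.000729). Mt2, a metallothionein, was still at 0.71 and 1.03, with log2 intensities of 13.75 and 13.59 in treated livers and 13.04 and 12.56 in control livers. Its difference of -4.65 ± 0.52 from 3 h was called (adjusted p = 0.00931), and its 72 h ratio was not (mean 0.87 ± 0.37, adjusted p = 0.427).

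Of 32 immediate early genes, 0 rose and 19 fell between 8 and 72 h, where 2.36% of all genes rose and 2.88% fell. The median was 0.07 at 72 h, against 1.75 at 8 h. Gadd45b, a stress-response gene, was at 1.40 and 0.25, and its relative Gadd45g at -0.12 and -1.97. Of 34 genes of the NRF2 and glutathione list, 4 rose and 16 fell from 48 h, and the median was 0.02. Gstm2, a mu glutathione transferase, stood at -1.36 and -1.29 on the 2 arrays, and its 2 other probes at -1.24 and -1.07, and -0.80 and -0.71, none called. Cbr1, a carbonyl reductase, was at 0.42 and 1.25. Of 34 ribosome biogenesis genes, 0 rose and 24 fell from 48 h, with a median of -0.03 at 72 h, against 0.80 at 48 h. Of 30 genes of the actin, tubulin and cytoskeleton list, 0 rose and 16 fell, with a median of -0.05, against 1.51. Relative to all genes, the cytoskeleton and the NRF2 lists lay at -0.44 and -0.34 at 72 h under median centring, and at 0.21 and 0.20 with slide as a term. Among 24 tested genes of G2 and mitosis, 1 fell from 48 h, and among 37 of S phase 1 rose and 9 fell, where 13.3% of all genes fell and 9.1% rose. At 72 h the mitotic kinase Cdk1 was at 0.32 and -0.13 and the proliferation marker Mki67 at 0.32 and -0.02.

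The question of what lagged was put to gene lists and to the genes furthest from control on both arrays. The 25 genes of cholesterol synthesis formed the list with the lowest 72 h median. Sterol synthesis runs from acetyl-CoA through mevalonate and squalene, and SREBP2 is the transcription factor known to induce its genes when sterols are low. The list's median was -0.58 at 72 h (-0.71 and -0.52 on the 2 arrays), against -0.79 at 48 h, -1.69 at 24 h and 0.00 for all genes at 72 h. With every spot kept in the background model the 72 h median was -0.31, with 22 of 25 below on both arrays. On both arrays, 22 of 25 were below control and 0 above, where 27.5% of all genes were below. None was called at 72 h. Between 48 and 72 h, 6 rose and 1 fell, where 9.1% of all genes rose and 13.3% fell. Between 24 and 72 h, 10 rose and 0 fell, where 6.18% of all genes rose and 3.58% fell.

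Along the pathway, Hmgcs1, the synthase that makes the precursor of mevalonate, was at -1.42 and -0.87 at 72 h. Mvk, mevalonate kinase, was at -1.25 and -0.89. Idi1, the isomerase of the isoprene units, had log2 intensities of 10.22 and 9.93 in treated livers, against 12.21 and 11.29 in control livers, and ratios of -1.99 and -1.36 (mean -1.68 ± 0.30, adjusted p = 0.122). Sqle, the squalene epoxidase, was at -2.01 and -0.65, the largest gap between the arrays within the list, and its treated and control livers overlapped. Msmo1, a sterol methyl oxidase, had log2 intensities of 10.84 and 9.71 in treated livers, against 13.01 and 11.31 in control livers. Its ratios were -2.17 and -1.60 (mean -1.88 ± 0.32, adjusted p = 0.118), and the treated livers did not overlap the control livers. Ebp, a sterol isomerase, was at 0.29 and -0.26.

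Promoter windows of RefSeq (build GRCm38.p6, 300 bases around the transcript start) were at hand for 17 of the 25 genes. The sterol regulatory element TCACNCCAC, searched on both strands, was in the window of 1 of the 17 (5.88%), against 388 of 27025 genes (1.44%). That gene is Hmgcs1, and its window at chr13:119690101-119690400, plus strand, is shown because it holds the motif, in capitals.
Hmgcs1: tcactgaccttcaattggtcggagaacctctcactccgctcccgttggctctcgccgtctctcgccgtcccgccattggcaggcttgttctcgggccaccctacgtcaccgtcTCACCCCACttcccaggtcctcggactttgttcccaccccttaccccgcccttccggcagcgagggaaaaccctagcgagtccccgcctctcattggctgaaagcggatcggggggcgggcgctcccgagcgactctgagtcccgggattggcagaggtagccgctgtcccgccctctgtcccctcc
A match is a description of the letters and was not tested as a binding site.

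**Figure D4:**
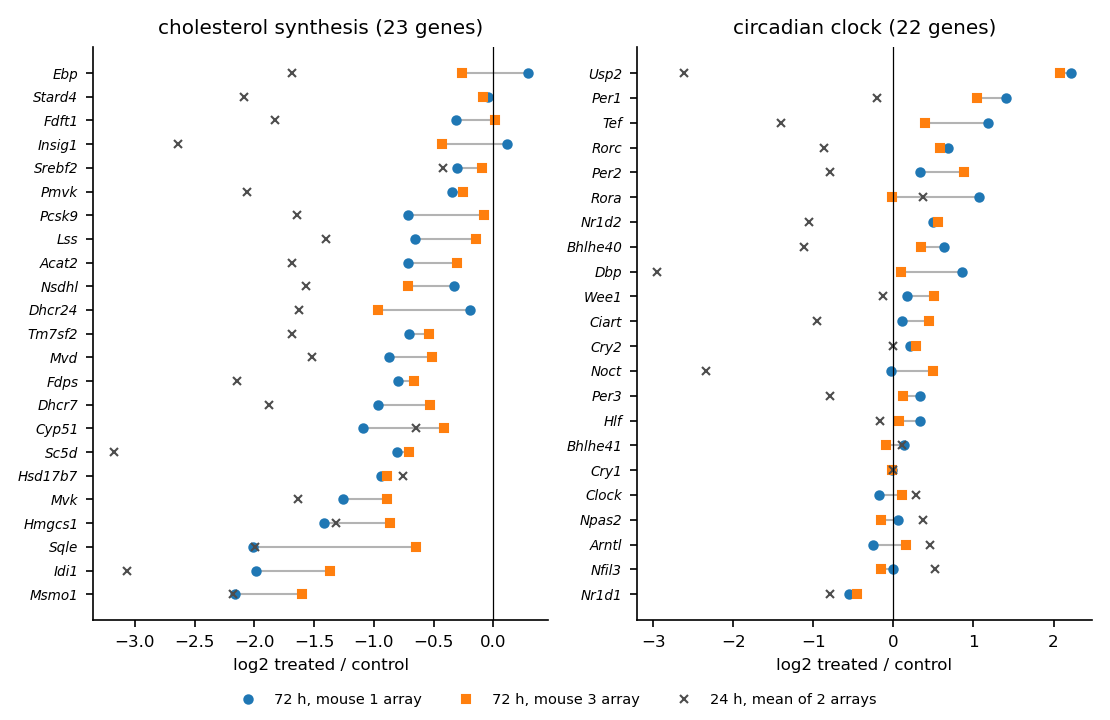
Log2 ratio of treated over control liver (horizontal axis) for 23 members of the cholesterol synthesis list (left) and all 22 tested of the circadian clock list (right), with the mouse 1 array of 72 h as circles, the mouse 3 array of 72 h as squares and the mean of the 2 arrays of 24 h as crosses. On the left 20 genes lie below 0 on both 72 h arrays. On the right 13 lie above 0 on both, and most crosses of both panels lie left of the 72 h points.

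Oxidative phosphorylation genes, which encode subunits of the respiratory chain and ATP synthase in the mitochondria that the drug's metabolite attacks, had a median slightly below 0. Of 45 tested, 37 were below control on both arrays and 0 above, where 27.5% of all genes were below and 25.9% above. The median was -0.27 (-0.26 and -0.26), against -0.48 at 48 h and -1.06 at 24 h. Ndufs8, a complex I subunit, was at -0.91 and -0.41, Cox6a1 of cytochrome oxidase at -0.63 and -0.43, and Atp5a1 of ATP synthase at -0.27 and -0.66. Between 24 and 72 h, 21 rose and 0 fell, where 6.18% of all genes rose and 3.58% fell. Between 48 and 72 h, 6 rose and 5 fell, where 9.1% of all genes rose and 13.3% fell. At 72 h, 0 were called. ND1, a complex I subunit encoded by the mitochondrial genome and not in this list, was at 1.20 and 0.94 (mean 1.07 ± 0.14, adjusted p = 0.0875), against -0.69 and -0.99 at 48 h.

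Amino acid catabolism also had more members below control than above. Of 35 genes, 22 were below on both arrays and 1 above, with a median of -0.26, where 27.5% of all genes were below and 25.9% above. From 48 h 20 rose and 1 fell, where 9.1% of all genes rose and 13.3% fell. From 24 h 27 rose and 0 fell, where 6.18% of all genes rose and 3.58% fell. Bhmt, which remethylates homocysteine from betaine and is abundant in hepatocytes (chromosome 13, 94386981 to 94387040), was the lowest. Its log2 intensities were 14.04 and 11.07 in treated livers, against 15.90 and 14.45 in control livers. The ratios of -1.86 and -3.39 gave a mean of -2.62 ± 0.32 (adjusted p = 0.0875), and the mean at 48 h was -2.69. The difference of 0.07 ± 0.46 between 72 and 48 h had an adjusted p of 0.941. The 2 other Bhmt probes gave -1.26 and -3.19, and -0.67 and -2.71. Got1, the cytosolic aspartate aminotransferase, was at -0.60 and -1.50, Tdo2, tryptophan dioxygenase, at 0.02 and -1.44, and Hgd, homogentisate dioxygenase, at -0.54 and -0.68.

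Of 24 periportal hepatocyte genes, 13 were below control on both arrays and 4 above, where 27.5% of all genes were below and 25.9% above. Their median was -0.17. Fbp1, the gluconeogenic fructose bisphosphatase (chromosome 13, 62966175 to 62966234), had log2 intensities of 13.88 and 13.47 in treated livers, against 14.80 and 14.61 in control livers. Its ratios of -0.93 and -1.14 averaged -1.03 ± 0.11 (adjusted p = 0.0677). Fbp1 had been at -3.06 at 24 h and -0.50 at 48 h, and its difference of -0.54 between 72 and 48 h was called (adjusted p = 0.0462), so its ratio was further below 0 at 72 h than at 48 h. Arg1, the arginase of the urea cycle, was at -1.22 and -0.44. Lifr, the receptor of leukaemia inhibitory factor, was at -0.71 and -0.93 (adjusted p = 0.0677). Its other probes gave -0.96 and -0.57, and, for the dimmest, -0.10 and -0.41. Fatty acid synthesis was less uniform: of 22 genes 10 were below on both arrays and 3 above, led by the desaturase Scd1 at -1.56 and -0.78, while Mlxipl, the carbohydrate-responsive transcription factor of the pathway, was at 0.93 and 0.45.

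Several of the lowest genes at 72 h encode secreted proteins. The major urinary proteins, pheromone carriers made by the liver, were looked at together after 7 of them appeared among the 12 lowest genes. All 11 Mup genes tested were below control on both arrays, with a median of -1.65 (-1.48 and -1.71), against -2.66 at 48 h, -1.63 at 24 h and 0.44 at 8 h. Mup9 was at -2.09 and -2.14 with log2 intensities of 14.92 and 15.26 in treated livers, against 17.01 and 17.39 in control livers. None of the 11 was called at 72 h (lowest adjusted p = 0.133). Mup genes are near-identical copies whose probes may share targets, so the members are not independent. Serpina3k, a serine protease inhibitor of plasma (chromosome 12, 105583645 to 105583704), had log2 intensities of 13.69 and 13.21 in treated livers, against 15.41 and 15.16 in control livers, and ratios of -1.72 and -1.95 (mean -1.83 ± 0.25, adjusted p = 0.0875). It had been at 0.74 at 48 h, and the difference of -2.57 ± 0.35 was called (adjusted p = 0.00204). Its paralog Serpina3m, at -1.30 and -1.52, fell likewise from 48 h, by 2.64 (adjusted p = 0.00441), and the probes of the family may also share targets.

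Usp2 stood above control on both arrays, and the genes of the circadian clock are given beside it. The circadian clock is a transcription loop in which CLOCK and BMAL1 (Arntl) activate the Per and Cry repressors and output factors such as Dbp and Tef through E-box sites. In liver, feeding time also sets its phase. Usp2, a deubiquitinase and clock output gene (chromosome 9, 43903649 to 43903708), had log2 intensities of 9.86 and 9.98 in treated livers, against 7.64 and 7.91 in control livers. The ratios were 2.22 and 2.08, a mean of 2.15 ± 0.25 (adjusted p = 0.0847). Usp2 had been below control at every earlier time, with means of -1.29, -1.87, -2.61 and -1.67 at 3, 8, 24 and 48 h, and its rise of 4.76 ± 0.36 from 24 h (adjusted p = 0.000362) was the largest of that comparison among genes with a symbol that met the naming rule. The treated livers did not overlap the control livers.

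Over the 22 clock genes, which include Usp2 as the highest, 13 were above control on both arrays, where 25.9% of all genes were, and 3 below. The median was 0.26 (0.26 and 0.22), against -0.33 at 48 h and -0.49 at 24 h. From 24 h 10 rose and 0 fell, where 6.18% of all genes rose and 3.58% fell. From 48 h 9 rose and 3 fell, where 9.1% of all genes rose and 13.3% fell. At 72 h, 0 were called. Per1, a repressor of the loop, had log2 intensities of 10.72 and 11.07 in treated livers, against 9.31 and 10.03 in control livers, and ratios of 1.41 and 1.05 (mean 1.23 ± 0.19, adjusted p = 0.117). A dimmer Per1 probe gave 0.01 and 0.06, so its probes did not give the same value. Per2 was at 0.33 and 0.88, Tef at 1.18 and 0.40, and Dbp at 0.86 and 0.10, after -3.19 at 48 h. Nr1d1, a repressor of Arntl, was at -0.56 and -0.46, while Arntl was at -0.25 and 0.15 and Clock at -0.18 and 0.11. The hour of day at which the livers were taken is not given in the sources used here.

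Promoter windows were at hand for 18 of the 22 clock genes. The E-box CACGTG, which reads the same on both strands, was in the windows of 5 of them (27.8%): Bhlhe41, Ciart, Cry1, Per1 and Tef. It was in 2187 of 27025 genes (8.09%) and in 4 of 17 cholesterol synthesis genes (23.5%). The Per1 window, at chr11:69098699-69098998 on the plus strand, is shown because Per1 was the gene of these 5 furthest above control, with the E-box in capitals.
Per1: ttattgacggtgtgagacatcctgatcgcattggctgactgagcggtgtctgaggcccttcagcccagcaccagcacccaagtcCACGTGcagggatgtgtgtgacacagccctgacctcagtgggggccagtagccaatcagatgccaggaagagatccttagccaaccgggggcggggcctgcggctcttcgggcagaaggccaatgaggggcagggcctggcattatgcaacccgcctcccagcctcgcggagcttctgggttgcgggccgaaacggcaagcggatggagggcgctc
Arntl, Nr1d1 and the other listed genes with a window held no CACGTG in these 300 bases, which says nothing of sites elsewhere.

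**Figure D5:**
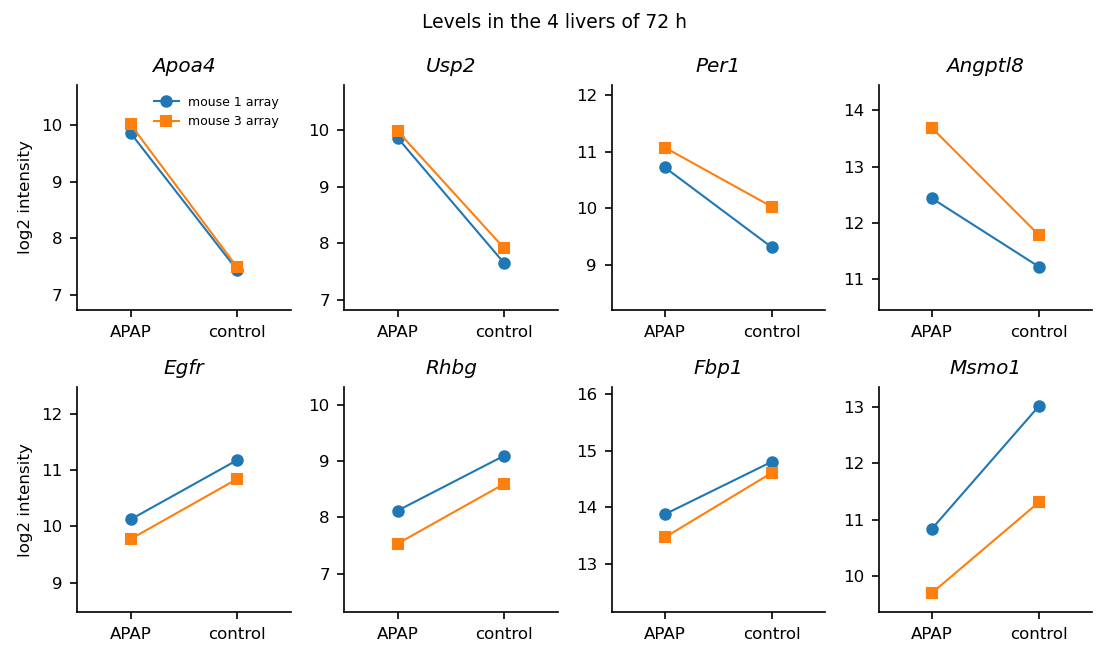
Log2 intensity, after normalization within and between arrays, of 8 genes in the acetaminophen-treated (APAP) and control livers of 72 h, with lines joining the 2 livers of an array. Each vertical axis spans 4 log2 units. In the upper row the treated livers lie above the control livers on both arrays, by 2.43 and 2.53 for Apoa4. In the lower row they lie below on both, by -1.05 and -1.06 for Egfr.

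Angptl8, a secreted regulator of lipoprotein lipase that is induced by feeding, had log2 intensities of 12.44 and 13.68 in treated livers, against 11.23 and 11.79 in control livers, and ratios of 1.21 and 1.89 (mean 1.55 ± 0.24, adjusted p = 0.113). It rose by 3.44 ± 0.34 from 3 h (adjusted p = 0.00537) and had been below control at all 4 earlier times. Slc22a26, an organic anion transporter family member, was at 1.64 and 1.08, against -2.48 and -2.70 at 48 h, a difference of 3.95 ± 0.31 (adjusted p = 0.000402). Ppp1r3b, a glycogen-targeting subunit of protein phosphatase 1, was at 1.00 and 0.91, and Slc16a7, a monocarboxylate transporter, at 0.92 and 0.88 (adjusted p = 0.0875 for each). Il1r1, the interleukin 1 receptor, was at 0.95 and 1.27, and Rad51b, a recombination repair gene, at 1.41 and 0.91. Slc6a6, the taurine transporter, was at 1.04 and 1.14. The 35 genes of fatty acid oxidation and fasting had 15 members below control on both arrays and 6 above, where 27.5% of all genes were below and 25.9% above. Their medians were 0.02 and -0.37 on the 2 arrays. From 48 h 3 rose and 15 fell, where 9.1% of all genes rose and 13.3% fell.

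None of the 4 genes called at 72 h belongs to the lists for other cells and inflammation. Of 32 recruited macrophage genes, 1 rose and 12 fell from 48 h, where 9.1% of all genes rose and 13.3% fell, and the median was 0.06 at 72 h, against 1.11 at 48 h. Of 18 neutrophil genes, 1 rose and 6 fell in the same comparison, with a median of 0.05 at 72 h, and S100a9, an abundant neutrophil protein, was at 0.41 and 0.55. Of 34 interferon response genes, 23 were below control on both arrays and 4 above, with a median of -0.22 (-0.25 and -0.20). For this and the next 2 lists, the shares over all genes were 27.5% below and 25.9% above. Rsad2, an antiviral interferon target, was at -0.86 and -0.62 at 72 h, against 2.45 and 3.32 at 48 h, a difference of -3.63 ± 0.73 (adjusted p = 0.00961). Of 20 genes of liver sinusoidal endothelium, 12 were below on both arrays and 1 above, with a median of -0.13. With slide as a term of the fit, the interferon and endothelium medians lay at -0.04 and -0.01 relative to all genes, that of the recruited macrophage list at 0.27 and that of the neutrophil list at 0.21. Of 34 acute phase genes, 20 were above on both arrays and 7 below, with a median of 0.18, but their median was -0.18 relative to all genes under median centring. Saa2, a serum amyloid A, was at 1.74 and 0.46, and Hp, haptoglobin, at 1.35 and 0.31. The means of the acute phase genes at 72 h ran from -1.83 to 1.11.

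Summed marker intensities of other cell types were compared between the 4 livers. The 5 Kupffer markers summed to 7960 and 4540 intensity units in treated livers, against 4529 and 5773 in control livers, so the 2 arrays differed in direction. Marco, a scavenger receptor of these cells, was at 1.66 and -0.07, and Cd5l at 1.13 and -0.35. Clec4f was at -0.22 and -0.39, Vsig4 at -0.05 and -0.51, and Timd4 at 0.04 and -0.29. Of 17 resident Kupffer cell genes, 9 were below control on both arrays and 2 above, where 27.5% of all genes were below and 25.9% above. Their median was -0.12, but with slide as a term of the fit it lay at 0.14 relative to all genes. The recruited macrophage markers summed to 862.6 and 596 units in treated livers, against 524.7 and 583.1 in control livers. These did not overlap, but 596 and 583.1 lay close together. Of these 4 markers, 2 were well above background in all 4 livers and 1 in none. The 3 endothelial markers summed to 3086 and 3772 units in treated livers, against 4106 and 4412 in control livers, with no overlap. The 3 neutrophil markers measured summed to 330.6 and 358.6 units in treated livers, against 268 and 273.3 in control livers, also with no overlap, and 1 of the 3 was well above background in all 4 livers. The 7 hepatocyte markers summed to 553600 and 471500 units in treated livers, against 437000 and 527900 in control livers. The stellate, biliary and lymphocyte sums overlapped between treated and control livers. The lack of overlap between 2 treated and 2 control livers was not tested, nor was the part of cell numbers in the gene lists.

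The arrays differed most from each other in haemoglobin genes and in a set of bright probes. Hbb-bs, a beta globin, was at -0.91 and -3.43. Its log2 intensities were 8.10 and 7.85 in treated livers, against 9.01 and 11.28 in control livers, so the gap lay mainly between the controls. Over 7 haemoglobin genes, grouped after their values were seen, 5 were below on both arrays, with medians of -0.46 and -2.23, and none was called (lowest adjusted p = 0.37). Their transcripts are those of young red blood cells, and the part of blood left in the livers was not tested. In the other direction, Zfp628, a zinc finger gene, was at 1.80 and -0.60, Pebp1, a kinase inhibitor protein, at 1.63 and -0.58, and Spcs2, a signal peptidase subunit, at 1.62 and -0.39. Higher on the mouse 3 array were Dmbt1, a scavenger receptor family gene, at 0.17 and 1.92, Krt8, a hepatocyte keratin, at -1.29 and 0.29, and Slc17a1, a phosphate transporter, at -0.05 and 1.37. None of these genes was called at 72 h.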

How the data were processed

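Per the file headers, the spots were quantified in Agilent Feature Extraction 10.7.3.1. The deposited files give mean and median background intensity per spot and channel, and the software's log10 ratio. The authors' deposited value table is a score equal to 1.443 times that log10 ratio on every array, with correlation 1, median 0 and 8.85% to 26.6% exact zeros. It was rescaled to log2 as an alternative, its stated scale being unknown.

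Intensities were corrected in limma 3.58.1 (R 4.3.3) by normexp with offset 50, fitted without 48 spots of bright background over all arrays, then normalized by loess within arrays. The 1377 control spots and 2718 outlier spots were left out. Probes had to be well above background on both arrays of some time, in 1 and the same channel (29623 of 39429 were), and the brightest kept probe stood for a gene. Names came from RefSeq accessions for 26581 probes, current symbols for 2597 and older symbols for 492, and 9759 kept the file's name. Coordinates are mm9 from the files, and exon or UTR position was not analysed here. Levels per liver are log2 intensities after loess and Aquantile.

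limma's lmFit and eBayes used 1 coefficient per time over 10 arrays (5 residual degrees of freedom, prior 3.194), two-sided. The number of arrays limits the precision. The labels number mice separately, and p-values measure the spread between these arrays. Same-numbered arrays deviated with correlations from -0.075 to 0.323, not all over 0.1, so numbers were not taken as pairs. The 39 gene lists hold 1069 genes, 1022 of them tested. Members and lists were chosen with earlier results of these data known. Genes were named by rule: the 12 highest and 12 lowest on both arrays of 72 h, any called gene, the 10 largest changes each way from 48 h and 5 from each earlier time, up to 3 of each kind per list, other list members where a sentence counts their list, and the 10 most discordant each way. A few genes that met these rules are not reported here, though counts and fits hold them. The scripts were tested on simulated data.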

Additional observations from a re-analysis of the deposited data

Results flagged for a closer look

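Differences of the 72 h ratio from an earlier one were called by limma for 5366 genes against 48 h, 2344 against 24 h, 1258 against 8 h and 206 against 3 h, and each gene given here was singled out because its treatment effect differed between those times. Values are differences of log2 ratios, 72 h minus the earlier time.

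Against 48 h, among the largest rises were those of Rgn (5.14), Cyp2c54 (4.53), Cyp3a11 (4.47), Upp2 (4.37), Inmt (4.31), Otc (4.13), Slco1b2 (4.10), Sult2a8 (4.08) and Slc22a26 (3.95). The largest falls were those of Igfbp1 (-4.20), Afp (-3.99), Uts2 (-3.89), Tubb2a (-3.73), Cidec (-3.69), Gm10639 (-3.63), Rsad2 (-3.63), Gsta1 (-3.47), Fabp4 (-3.46) and Cgref1 (-3.44). Each of these 19 kept its direction on both slides that carried a 48 h and a 72 h array.

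Against 24 h, among the largest rises were those of Usp2 (4.76), Upp2 (4.12), Inmt (4.02) and Slco1b2 (3.97). The largest falls were those of Gm10375 (-3.97), Lor (-3.89), Mmp3 (-3.62), Sprr2i (-3.60) and BC061237 (-3.60). Mmp3, a matrix metalloproteinase, and Sprr2i, a cornified envelope gene, were not well above background in any liver of 72 h.

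Against 8 h the largest rises were those of Usp2 (4.02), Tmem25 (3.03), 1810019D21Rik (2.86), Angptl8 (2.61) and Noct (2.50). The largest falls were those of Igfbp1 (-6.89), Egr1 (-6.18), Chac1 (-5.29), Ifrd1 (-5.29) and Cxcl10 (-5.01). Against 3 h the largest rises were those of Angptl8 (3.44), Usp2 (3.44), Cyp7a1 (2.87), Apoa4 (2.77) and Cish (2.42), a feedback inhibitor of growth hormone signalling. The largest falls were those of Igfbp1 (-7.82), Egr1 (-5.57), Rgs16 (-4.67), Mt2 (-4.65) and Chac1 (-4.42). No 72 h array shared a slide with a 3 h array, so slide can be set apart from time here only through arrays of other times. With slide as a term of the fit, 0 genes were called against 3 h and 1998 had an unadjusted p under 0.05.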

How the results depend on the processing

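At 72 h, limma called 4 genes, against 2 with no background correction, 8 with a normexp offset of 0, 398 with scaling between arrays, 1 with the software's log ratio and 1 with the authors' rescaled table, 9 with the strict filter on dim probes, 9 with an intensity trend and 11 with scan day as a block. It called 0 with median centring, with only its own 2 arrays, with slide as a block, with the replicate block and with normexp fitted on every spot, where 661, 1842, 2554, 2400 and 766 genes had an unadjusted p under 0.05, and 2 without the GT-run probes; the last 2 settings were chosen after seeing the data. Apoa4 was called in 16 of 26 alternatives, Egfr and Rhbg in 10 of 26 each and Mtfr2 in 6 of 25. Differences from 48, 24, 8 and 3 h numbered 5366, 2344, 1258 and 206, against 284, 16, 7 and 0 with median centring (4.23%, 25% and 14.3% of the first 3 counts higher, against 40.7%, 63.3% and 45%), and 3160, 1265, 622 and 29 with only the arrays compared. Slide as a block gave 683, 54 and 0 from 24, 8 and 3 h, normexp on every spot 997 and 744 from 24 and 8 h, and the software's log ratio and the authors' table each 1538 and 570. An offset of 0 gave 781 from 8 h, and scaling between arrays 399 from 3 h. The replicate block, for which the mouse numbers do not pair the samples, gave 169 from 8 h, and 5837, 2307 and 156 from 48, 24 and 3 h. Leaving out single arrays gave 0 to 292 genes at 72 h, and 2743 to 5747, 958 to 2360, 292 to 1289 and 34 to 212 in the 4 differences; a lone array was assumed to vary like the rest. The 292 at 72 h came without the mouse 3 array of 72 h, and without the mouse 1 array the counts were 0, 2743, 1193, 550 and 63. Without the mouse 3 array of 48 h the difference from 48 h numbered 3157, without the mouse 1 array of 24 h that from 24 h 958, without either 8 h array that from 8 h 292 and 510, and without the mouse 1 array of 3 h that from 3 h 77. The causes were not tested. Among named genes, 584 values at 72 h kept their side of the threshold, 61 lost and 29 gained a call. All 61 belong to the 4 genes called at 72 h, and most of the 584 to genes that had no call to lose. Of the differences of named genes from an earlier time, 1202 kept and 86 lost their call. Signal over background limits the dimmer mouse 1 array of 72 h, and 2 arrays cannot separate mouse from array.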
